A study of Mus musculus with 12 samples.

Results

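Keratins are the intermediate filament proteins of epithelial cells, and 8 of them mark the 2 layers of the mammary duct: Krt7, Krt8, Krt18 and Krt19 the inner luminal cells, and Krt5, Krt14, Krt15 and Krt17 the outer basal layer. All probe sets whose platform gene symbol is 1 of these 8 genes were taken, which gave 13 probe sets for 1 keratin each and 1 more that names both Krt17 and Krt14. All 8 genes were among the 14204 genes tested. Their signals were read in mammary tissue of 12 mice on day 6 after the plug, 3 mice in each of 4 genotypes. Stat5a-/- mice had 0 intact Stat5a and 2 intact Stat5b alleles. In Stat5ab+/null mice 1 intact allele of each gene was left. Mice labelled Stat5abnull/Stat5a-, called single-Stat5b here, kept 1 Stat5b allele, and mice labelled Stat5abnull/Stat5b-, called single-Stat5a, kept 1 Stat5a allele. All mice were of a mixed C57BL/6, FVB and 129 background, and none was wild type. The labels also speak of sorted cells and of an Mx1-Cre transgene switched on with PolyIC, while the series design gives whole mammary tissue; the design was followed.

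Keratin filaments are built from pairs of 1 acidic type I chain and 1 basic type II chain. Krt8 with Krt18 is the pair of simple epithelia, and Krt5 with Krt14 the pair of the basal layer of stratified epithelia. Krt19 is a type I chain without a tail domain, and Krt7 is a type II chain of ducts and glands. Krt15 is a type I chain of basal epidermal and hair follicle cells, and Krt17 a type I chain of appendages that is induced by injury. In the mammary gland these proteins serve as stains for the luminal and the basal layer, and Stat5a and Stat5b, the transcription factors downstream of the prolactin receptor, act in luminal cells to form alveoli.

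The genes lie in 2 clusters. The mouse gene table places Krt15, Krt19, Krt14 and Krt17 in this order on chromosome 11, with 23 protein-coding genes between Krt17 and Stat5b, which is followed directly by Stat5a. The targeted Stat5 genes and 4 of the 8 keratins are thus linked. Krt7, Krt5, Krt8 and Krt18 lie in this order on chromosome 15, and no other protein-coding gene stands between Krt8 and Krt18, which are read in opposite directions. RefSeq promoter windows (GRCm38.p6, 300 bases around the annotated start) matched 5 of the 8 genes, and those of Krt8 and Krt18 are shown as the neighbours that form 1 filament pair. Capitals mark matches to TATAAA on either strand, which overlap in Krt8.
Krt8, chr15:102004293-102004592, minus strand: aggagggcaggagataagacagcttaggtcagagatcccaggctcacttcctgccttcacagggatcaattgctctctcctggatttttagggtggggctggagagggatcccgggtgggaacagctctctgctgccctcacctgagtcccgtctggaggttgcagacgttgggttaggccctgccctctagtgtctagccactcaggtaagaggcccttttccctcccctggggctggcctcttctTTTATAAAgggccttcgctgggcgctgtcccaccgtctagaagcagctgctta
Krt18, chr15:102027966-102028265, plus strand: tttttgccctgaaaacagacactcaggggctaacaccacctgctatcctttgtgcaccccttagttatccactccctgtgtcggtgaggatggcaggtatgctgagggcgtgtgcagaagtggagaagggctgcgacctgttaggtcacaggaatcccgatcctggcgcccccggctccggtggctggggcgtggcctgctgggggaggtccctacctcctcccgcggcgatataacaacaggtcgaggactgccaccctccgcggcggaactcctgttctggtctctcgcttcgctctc
The motif TTCNNNGAA, the core of the site that STAT proteins bind, was searched on both strands. It is in neither window, nor in those of Krt5, Krt7 and Krt14, while 8.3% of 32851 mouse promoter windows hold it. The annotated start in the Krt14 window lies 1480 bases inside the span of that gene in the gene table. TATAAA is in the Krt8 window and in 13.6% of all windows. These are matches of letters in these windows and say nothing about binding.

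The arrays form 2 sets that follow the total of intact alleles, the single-Stat5b and single-Stat5a arrays (1 allele) and the Stat5a-/- and Stat5ab+/null arrays (2 alleles), and no genotype has arrays in both. For actin, the gap between the 3' and the 5' control probes, which reflects RNA quality and labelling, was 2.16 to 3.78 (log2) in the 1-allele arrays and 0.13 to 0.27 in the 2-allele arrays. Allele number and array set cannot be told apart, so tests were made within each set. The 1-allele arrays also differed among themselves in this gap. It was 3.78 for actin and 3.91 for Gapdh in single-Stat5b 1, and 3.07 and 2.80 in single-Stat5a 3. The other 1-allele arrays had 2.16 to 2.42 and 1.11 to 1.48. The values are log2 signals as deposited, and limma with Benjamini-Hochberg adjustment over the 14204 genes was used, and genes with an adjusted p under 0.05 were called. Nothing says how far the mice are independent beyond being separate samples, so p-values measure only the spread between samples. The number of arrays, 3 a genotype, limits the precision. For each gene the spread was pooled over all 4 genotypes. It was unequal, with a median keratin SD of 0.11 for Stat5ab+/null and 0.67 for single-Stat5b. In fits of only the 2 groups compared, every keratin's standard error was smaller in the 2-allele set and larger in the 1-allele set. For Krt7 in the 2-allele set the SE was 0.11 instead of 0.26, and for Krt15 in the 1-allele set 0.43 instead of 0.36. Probe sets for Stat5a and Stat5b did not follow the labels of the 2-allele arrays. The brighter of 2 Stat5a probe sets averaged 10.30 ± 0.18 in the arrays labelled Stat5a-/- and 9.91 ± 0.15 in Stat5ab+/null (SD, n = 3). The weaker averaged 8.94 and 8.37. The 2 Stat5b probe sets averaged 9.59 and 8.27 in Stat5a-/-, against 9.90 and 8.52 in Stat5ab+/null. In the 1-allele arrays no mean went against the labels. There the brighter Stat5a probe set averaged 12.21 in single-Stat5a and 10.98 in single-Stat5b, and the weaker Stat5b probe set 6.15 and 6.79. The position of these probes relative to the deleted parts is not known here, so this does not test the labels. Each direction below is between arrays as labelled.

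All 8 keratins were clearly measured. Over the 12 arrays the probe set used for Krt8 averaged 13.31, that for Krt18 13.26 and that for Krt19 13.16, each above at least 99.1% of all probe sets, and Krt7 averaged 11.34. Among the basal keratins Krt14 averaged 11.88, Krt5 11.45, Krt15 11.07 and Krt17 9.79, the last above 80.8% of probe sets. These are signals of different probes, so their order across genes is not a ranking of transcripts. Other markers of both layers were present too: the 23 measured luminal epithelial genes averaged 10.3 to 10.5 per array in single-Stat5b, 9.74 to 10.4 in single-Stat5a, 10.4 to 10.7 in Stat5a-/- and 10.6 to 10.8 in Stat5ab+/null, and the 20 measured basal and myoepithelial genes 10.2 to 10.9 over all 12 arrays. In bulk tissue, fewer cells of a type and less RNA per cell cannot be told apart.

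**Figure D1:**
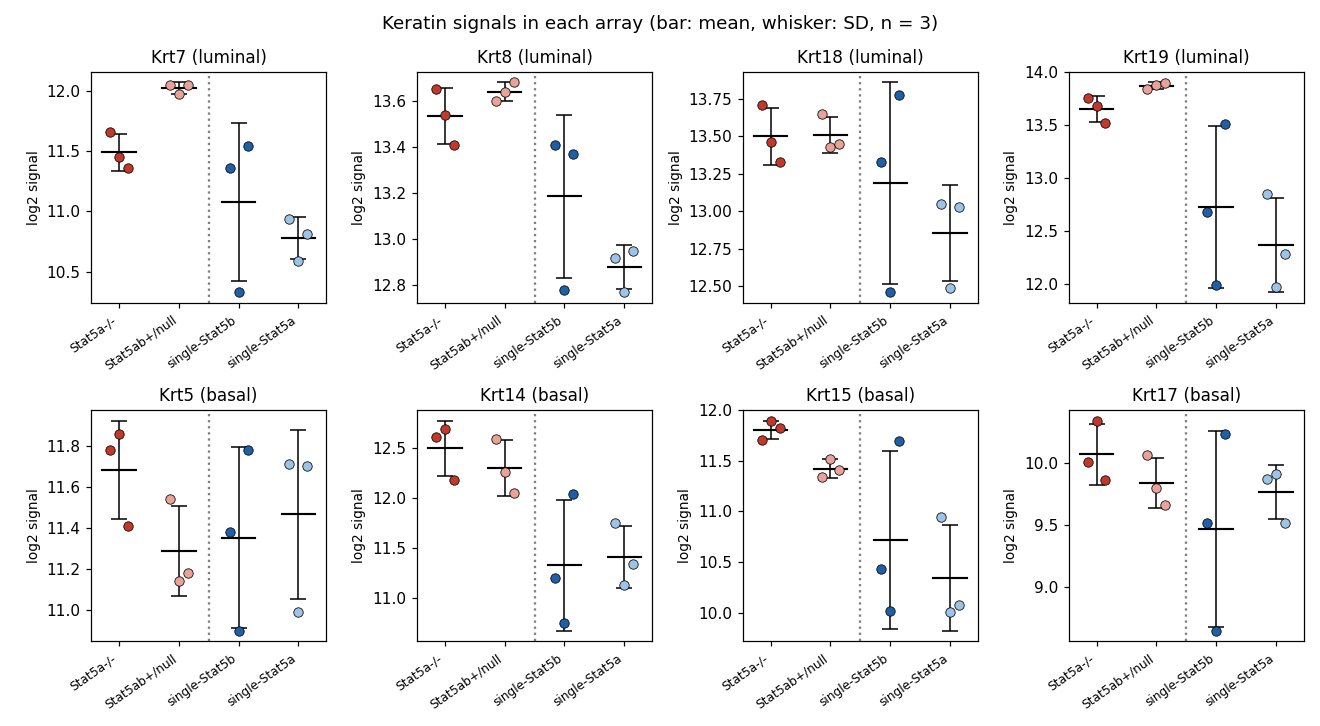
Log2 signal of each luminal (top row) and basal (bottom row) keratin in every array, by genotype. Each point is 1 mouse, bars are means and whiskers SD (n = 3), and the dotted line parts the 2-allele from the 1-allele arrays; in single-Stat5b the array at the bottom of all 8 panels is the same mouse.

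Between Stat5a-/- and Stat5ab+/null, which have the same allele total, no keratin passed the test, and the 2 layers lay on opposite sides of 0. All 4 luminal keratins were below 0, with a median log2 difference of -0.16, and all 4 basal keratins were above 0, with a median of 0.31. Over all genes 33.6% were above 0, and the median was -0.08. limma called 0.00704% of genes in this comparison, 1 gene and no keratin, while 427 genes, 3.01%, had an unadjusted p under 0.05, none of them a keratin. Every keratin had an adjusted p = 1.00.

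Krt7 showed the widest luminal gap. It had 11.66, 11.45 and 11.36 in Stat5a-/- arrays, against 12.05, 11.97 and 12.05 in Stat5ab+/null arrays. The groups did not overlap, and the log2 difference was -0.53 (SE 0.26, 95% interval -1.10 to 0.03), a size exceeded by few genes, since 96.8% of all genes differed by less. Krt19 had 13.76, 13.68 and 13.52 in Stat5a-/- arrays, against 13.84, 13.88 and 13.90 in Stat5ab+/null arrays, a difference of -0.22 (SE 0.32). It also did not overlap, by a narrow margin beside its own range in Stat5a-/-. Krt8 had 13.65, 13.54 and 13.41 in Stat5a-/- arrays, against 13.60, 13.64 and 13.68 in Stat5ab+/null arrays, and its partner Krt18 had 13.71, 13.46 and 13.33 against 13.65, 13.43 and 13.45. Both overlapped, with differences of -0.11 (95% interval -0.51 to 0.29) and -0.01 (-0.63 to 0.61). Another Krt8 probe set, 1435989_x_at, did not overlap, with 12.86, 12.85 and 12.76 in Stat5a-/- arrays, against 12.94, 13.01 and 13.04 in Stat5ab+/null arrays. A further Krt8 probe set, 1423691_x_at, overlapped.

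Of the basal keratins, Krt15 was the 1 without overlap: it had 11.71, 11.89 and 11.82 in Stat5a-/- arrays, against 11.34, 11.52 and 11.41 in Stat5ab+/null arrays, a difference of 0.38 (SE 0.36). The standard error is larger than the scatter of these 6 values because it pools the spread of all 4 genotypes, which for Krt15 was wide in the 1-allele arrays. Krt5 had 11.78, 11.86 and 11.41 in Stat5a-/- arrays, against 11.54, 11.14 and 11.18 in Stat5ab+/null arrays (difference 0.40, SE 0.26, 95% interval -0.16 to 0.96). Its partner Krt14 had 12.62, 12.70 and 12.18 against 12.60, 12.26 and 12.05 (difference 0.20, SE 0.30). The other Krt14 probe sets differed by 0.32 (1460347_at) and 0.28 (1455573_at), with the same sign. The latter averaged 6.36 over the 12 arrays, close to the filter level of 6.04. Krt17 had 10.01, 10.34 and 9.86 against 10.06, 9.80 and 9.66, a difference of 0.23 (SE 0.32). In the probe sets used, groups did not overlap in 2 of 4 luminal keratins, both lower, where 13.6% of all genes lay apart in that direction. The same held for 1 of 4 basal keratins, higher, where 5.48% did.

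The spread of a keratin among the mice of 1 genotype was small in this set, with SDs of 0.09 to 0.28 in Stat5a-/- and 0.03 to 0.28 in Stat5ab+/null over the 8 genes. In a fit of these 6 arrays alone no keratin passed either, and with weights for the quality of each array Krt7 did (-0.55, adjusted p = 0.0370). The weighted fit called many more genes than the main fit, as counted in the closing sections. Lymphoid signal varied beside these values: the mean of 9 measured B and plasma cell genes was 6.73 to 11.5 in Stat5a-/- and 7.63 to 12.0 in Stat5ab+/null, and that of 12 skeletal muscle genes 6.38 to 9.71 and 6.24 to 8.66. Stat5a-/- 3, the Stat5a-/- array with the highest value for both lists, was also the lowest Stat5a-/- array for 7 of the 8 keratins. With the means of both lists in the fit, 0 of 4 luminal and 4 of 4 basal keratins were again above 0, with medians of -0.19 and 0.15.

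**Figure D2:**
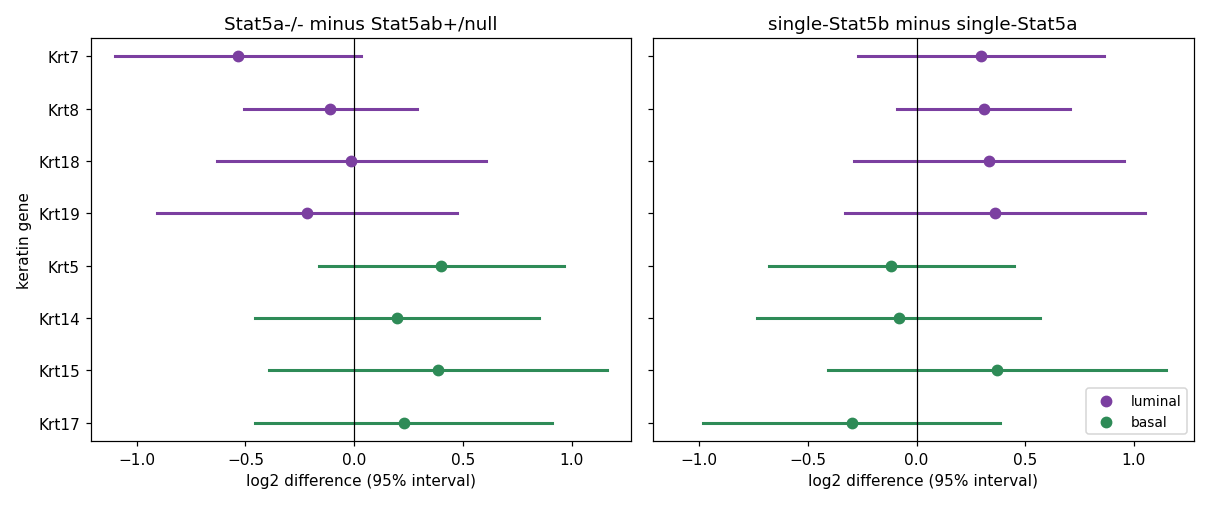
Log2 difference of each keratin (points) with its 95% interval from limma (lines) for Stat5a-/- minus Stat5ab+/null and for single-Stat5b minus single-Stat5a, luminal genes above basal genes. All 16 intervals include 0.

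Between single-Stat5b and single-Stat5a, which asks about the isoform that remains as the only allele, again no keratin passed, although 2.18% of genes did (310 genes, 116 higher and 194 lower). All 4 luminal keratins were above 0, with a median of 0.32 and a narrow range of 0.30 to 0.36. Of the basal keratins 1 of 4, Krt15, was above 0, and their median was -0.10. Over all genes 45.9% were above 0, and the median was -0.03. No keratin had groups without overlap, against 4.64% of genes apart with higher signal in single-Stat5b and 6.26% apart with lower signal, and none had an unadjusted p under 0.05.

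Krt8 had 13.41, 12.78 and 13.37 in single-Stat5b arrays, against 12.92, 12.77 and 12.95 in single-Stat5a arrays (difference 0.31, SE 0.18, 95% interval -0.09 to 0.71, adjusted p = 0.609). Of the 3 single-Stat5b mice, 2 lay above the single-Stat5a mice and 1 among them. Krt18 had 13.33, 12.46 and 13.78 in single-Stat5b arrays, against 13.05, 12.49 and 13.03 in single-Stat5a arrays (difference 0.33, SE 0.29). Krt7 had 11.36, 10.33 and 11.54 against 10.94, 10.59 and 10.81 (difference 0.30, SE 0.26). For both, 2 single-Stat5b mice lay above all single-Stat5a mice and 1, single-Stat5b 2, below them all. Krt19 had 12.68, 11.99 and 13.51 against 12.85, 11.97 and 12.28 (difference 0.36, SE 0.32), with 1 mouse above the single-Stat5a range.

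The basal keratins were spread as widely. Krt5 had 11.38, 10.90 and 11.78 in single-Stat5b arrays, against 11.71, 10.99 and 11.70 in single-Stat5a arrays, and Krt14 had 11.20, 10.74 and 12.04 against 11.75, 11.13 and 11.34. Their differences were -0.12 (SE 0.26) and -0.08 (SE 0.30), and the single-Stat5b values enclosed the single-Stat5a values in both. Krt15 had 10.43, 10.02 and 11.70 against 10.95, 10.01 and 10.08 (difference 0.37, SE 0.36), and Krt17 had 9.52, 8.65 and 10.23 against 9.87, 9.91 and 9.52 (difference -0.30, SE 0.32). For both, the highest value of the set belongs to single-Stat5b 3.

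Individual mice set these values. Single-Stat5b 2 was the lowest single-Stat5b array for all 8 keratins, and single-Stat5b 3 the highest for 7 of the 8, among all 6 arrays of the set too. The SD over 3 mice was 0.35 to 0.87 in single-Stat5b (median 0.67, against 0.39 over all genes) and 0.10 to 0.52 in single-Stat5a. Without single-Stat5b 2, Krt7 passed (0.67, adjusted p = 0.0416), the luminal median was 0.69 and all 4 basal keratins were above 0 with a median of 0.16. The number of genes called moved too, from 232 to 898 with each array left out, against 310 with all arrays. Without single-Stat5b 3, the luminal median was 0.05, with 3 of 4 above 0, and no basal keratin was above 0 (median -0.38). The luminal median also moved to 0.18 without single-Stat5a 2, and the basal median to -0.22 without it and to 0.05 without single-Stat5a 1. With these list means in the fit the luminal median was 0.31, and 3 of 4 basal keratins were above 0.

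The layers can be set against each other within each array, which cancels whatever shifts all 8 keratins of a mouse together. The mean of the 4 luminal signals minus the mean of the 4 basal signals was 1.67, 1.34 and 1.59 in Stat5a-/- arrays, against 1.90, 2.05 and 2.20 in Stat5ab+/null arrays. It was 2.06, 1.81 and 1.61 in single-Stat5b arrays, against 1.37, 1.44 and 1.61 in single-Stat5a arrays. The level itself compares different probes and has no meaning of its own. Between arrays, it was lower in all Stat5a-/- mice than in all Stat5ab+/null mice, with a mean difference of -0.52, and higher in single-Stat5b, with a mean difference of 0.36 and groups barely apart (1.6141 for the lowest single-Stat5b array, 1.6053 for the highest single-Stat5a array). With the B cell and muscle list means in the fit the differences were -0.41 and 0.18, and with array weights -0.60 and 0.59, so the size in the single-allele arrays moved by over 1.5 times. Single-Stat5b 1, with the highest value of the 1-allele arrays, also had the widest gap between 3' and 5' control probes. With that control signal as a covariate, the luminal median for single-Stat5b minus single-Stat5a was 0.29 and the basal median -0.08. No p is given for this combined value, which was formed from genes chosen with earlier results known.

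**Figure D3:**
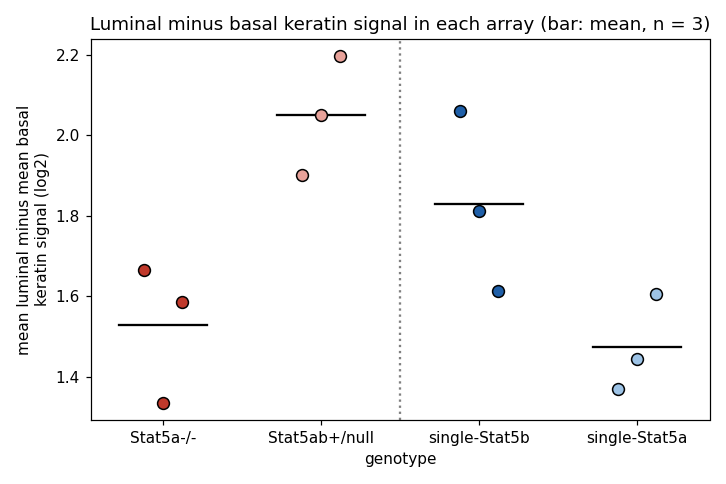
Mean log2 signal of Krt7, Krt8, Krt18 and Krt19 minus that of Krt5, Krt14, Krt15 and Krt17 in each array (points), with the mean of each genotype (bars, n = 3). Stat5a-/- arrays lie at 1.34 to 1.67 and Stat5ab+/null arrays at 1.90 to 2.20, while single-Stat5b arrays lie at 1.61 to 2.06 and single-Stat5a arrays at 1.37 to 1.61.

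Whether the differences of the 2 sets differ from each other was tested gene by gene, as (single-Stat5b minus single-Stat5a) minus (Stat5a-/- minus Stat5ab+/null). No keratin passed, where 0.774% of genes did (110 genes). All 4 luminal keratins were above 0 (median 0.50) and all 4 basal keratins below 0 (median -0.40), beside 55.6% of all genes above 0. With the B cell and muscle list means in the fit, 3 of 4 basal keratins were above 0 instead (median 0.07), and 4 of 4 luminal keratins again (median 0.55). Krt7 had the largest value, 0.83 (SE 0.37, 95% interval 0.03 to 1.63, adjusted p = 0.658). Without single-Stat5b 2 Krt7 passed (1.20, adjusted p = 0.0178), where fits with each array left out called 64 to 199 genes. Krt15, at -0.01 (SE 0.51), differed by about the same amount in both sets.

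Keratins of 2 filament pairs, and Krt8 with Krt5 from the 2 layers, were compared across the 6 arrays of each set, 6 relations in all. Each set mixes 2 genotypes and no genotype mean was subtracted here, so a genotype difference adds to r or takes from it. The permutations treat the 6 arrays as exchangeable. Single-Stat5b 2 was the lowest of its genotype for all 8 keratins, so shifts of a whole array also enter r. Krt5 and Krt14 had r = 0.87 in the 1-allele arrays (exact permutation p = 0.0264, adjusted 0.0722) and the same rank order, rho = 1.00 (exact permutation p = 0.00278, the smallest possible, adjusted 0.0167). Without the 2 arrays farthest from the Krt5 median, single-Stat5a 2 and single-Stat5b 2, r was 0.78. In the 2-allele arrays they had r = 0.88 (exact permutation p = 0.0361, adjusted 0.0722) and rho = 0.83 (exact p = 0.0583, adjusted 0.117), with r = 0.90 after the same step. Krt8 and Krt18 had r = 0.90 (exact p = 0.0222, adjusted 0.0722) and rho = 0.83 (exact p = 0.0583, adjusted 0.117) in the 1-allele arrays, and r = 0.99 without single-Stat5b 1 and 3. In the 2-allele arrays they had r = 0.55 (exact p = 0.238, adjusted 0.343) and rho = 0.37 (exact p = 0.497, adjusted 0.564), which turned to r = -0.47 without Stat5a-/- 2 and 3, so this relation rests on those arrays. Krt8 and Krt5, the type II chains of the 2 layers, had r = 0.54 (exact p = 0.286, adjusted 0.343; rho = 0.54, exact p = 0.297, adjusted 0.446; r = 0.98 without single-Stat5b 1 and 3) in the 1-allele and r = -0.22 (exact p = 0.744, adjusted 0.744; rho = -0.31, exact p = 0.564, adjusted 0.564; r = -0.35 without Stat5a-/- 2 and 3) in the 2-allele arrays.

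After the mean of each genotype was subtracted, all 28 pairs of keratins correlated above 0 over the 12 arrays, as a description of arrays that share tissue makeup and labelling. The single-Stat5b arrays weigh most in these values, with a median keratin SD of 0.67, against 0.11 to 0.32 in the other genotypes. The 6 luminal pairs had r of 0.77 to 0.96 (median 0.90), the 6 basal pairs 0.64 to 0.89 (median 0.80) and the 16 pairs across the layers 0.55 to 0.95 (median 0.77). The highest pair across the layers was Krt15 with luminal Krt19, above Krt15 with the other basal keratins (0.67 to 0.84). Filament partners did not stand out. Krt5 with Krt14 and Krt8 with Krt18 each had 0.89, against 0.90 for Krt18 with Krt5. Among all genes, Krt7 followed the mean of Krt8 and Krt18 most closely (r = 0.98, n = 12 arrays), ahead of Tmub2 (0.97), the transcription factor gene Nfatc4 (0.97), Galnt18 (0.97) and the translation factor gene Eif4h (0.97). Krt19 ranked 345 on this measure, Krt14 931 (r = 0.82) and Krt15 2339 (r = 0.70). Values of this size are thus common among all genes and not particular to keratins. The genes closest to the mean of Krt5 and Krt14 were Olfml2b (0.98), Lamb3, the beta chain of the laminin that anchors basal epithelium (0.97), the chromatin remodeller gene Chd4 (0.97), the protease gene Capn5 (0.97) and Cmtm8 (0.96), and Krt18 ranked 35, ahead of Krt15 and Krt17.

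The other genes of both layers were read from lists. Of 23 measured luminal epithelial genes, 7 were above 0 between Stat5a-/- and Stat5ab+/null (median -0.07), and 21 between single-Stat5b and single-Stat5a (median 0.31), beside a median of -0.03 over all genes in the second comparison. None was called in either. Kit, a receptor tyrosine kinase found on luminal progenitors, had 12.51, 12.47 and 12.12 in Stat5a-/- arrays, against 11.85, 11.41 and 11.33 in Stat5ab+/null arrays (0.83, SE 0.23, adjusted p = 1.00, other probe set 0.40). Ehf, an epithelial ETS factor, differed by 0.77 (SE 0.35, other probe sets 0.26 and 0.85). Gata3 (-0.73, SE 0.25) and Foxa1 (-0.70, SE 0.24), factors of hormone-sensing luminal cells, lay on the other side. The hormone receptor genes Esr1 (0.05, SE 0.18) and Pgr (-0.25, SE 0.27) of the same list overlapped between the groups. In this comparison Gata3, Foxa1, Esr1 and Pgr were picked out after their values were seen. Between the single-allele genotypes the widest gaps were those of the progesterone receptor gene Pgr (0.69, SE 0.27, adjusted p = 0.316, other probe set 0.21) and of Cldn4 (0.60, SE 0.36, adjusted p = 0.608), a tight junction gene whose signal in both groups, 4.80 to 6.86, straddles the filter level of 6.04.

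Basal and myoepithelial genes other than keratins had list medians near 0 in both comparisons and a wide range around them. Of 20 measured, 12 were above 0 (median 0.04, range -0.56 to 0.73) between Stat5a-/- and Stat5ab+/null and 11 (median 0.04, range -0.68 to 0.38) between single-Stat5b and single-Stat5a, with none called. Trp63, the p63 factor that maintains basal epithelium, had 10.50, 10.32 and 9.82 in Stat5a-/- arrays, against 9.93, 9.49 and 9.03 in Stat5ab+/null arrays (0.73, SE 0.31, adjusted p = 1.00; other probe sets 0.04 to 0.45). Igfbp2 differed by -0.56 (SE 0.49). Between single-Stat5b and single-Stat5a, Col17a1, a hemidesmosome collagen, differed by -0.68 (SE 0.32, adjusted p = 0.437) and Tagln, an actin-binding protein of contractile cells, by -0.42 (SE 0.33).

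**Figure D4:**
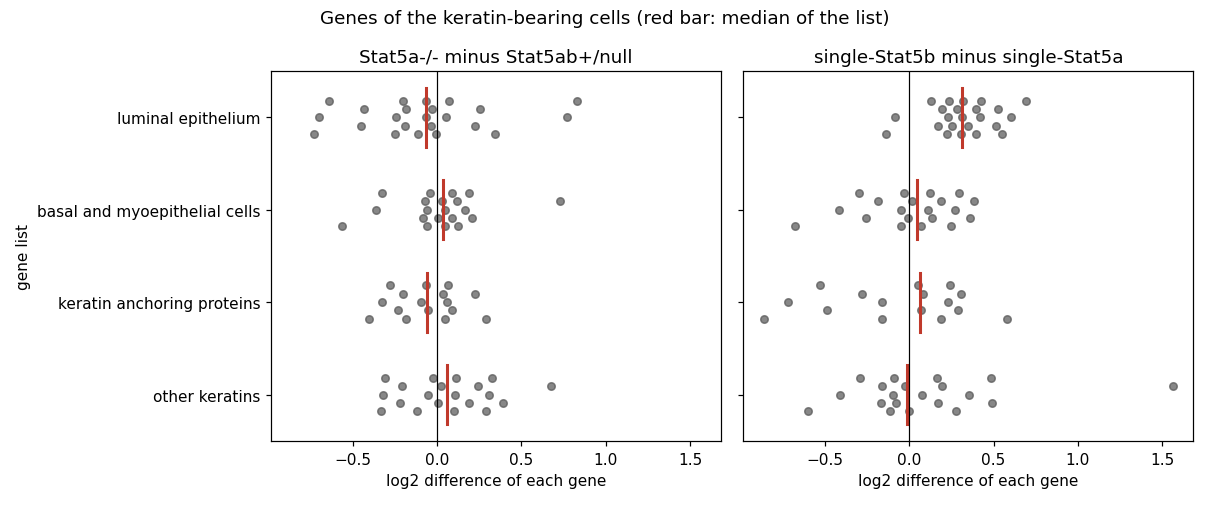
Log2 difference of each measured gene (points) on 4 lists in the 2 comparisons, with the median of each list (red bars). Luminal epithelial genes have a median of -0.07 for Stat5a-/- minus Stat5ab+/null and 0.31 for single-Stat5b minus single-Stat5a; the point at 1.56 is Krt73.

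Of the proteins that anchor keratins at desmosomes and hemidesmosomes, 16 of 18 were measured, with medians of -0.06 and 0.06 in the 2 comparisons and none called. Jup, the junction protein plakoglobin, had 8.45, 8.76 and 8.95 in single-Stat5b arrays, against 9.48, 9.70 and 9.58 in single-Stat5a arrays, without overlap (-0.86, SE 0.22, adjusted p = 0.0728). Jup lies on chromosome 11 between Krt17 and Stat5b. Pkp1, a desmosomal plaque protein, differed by -0.72 (SE 0.29, adjusted p = 0.328) in this comparison and by -0.40 (SE 0.29) between Stat5a-/- and Stat5ab+/null, where Plec, the linker plectin, differed by -0.33 (SE 0.32, other probe sets -0.44 and -0.25).

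Of 40 other keratin genes with a probe set, 20 passed the filter, and 1 was called. Krt73, a type II keratin of the hair follicle's inner root sheath, rose in single-Stat5b: it had 8.01, 8.92 and 7.56 there, against 6.76, 6.53 and 6.50 in single-Stat5a arrays (1.56, SE 0.32, adjusted p = 0.0202). Krt73 lies between Krt5 and Krt8 on chromosome 15. Krt80 (-0.60, SE 0.25), Krt4 (0.49, SE 0.30) and Krt32 (0.49, SE 0.22) did not pass. Between Stat5a-/- and Stat5ab+/null the widest gaps were those of Krt73 (0.67, SE 0.32), Krt6a (0.39, SE 0.19), Krt79 (-0.33, SE 0.24) and Krt88 (0.33, SE 0.21), none of which passed.

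Krt5, Krt14, Krt15 and Krt17 are also made in skin and hair follicles, so skin markers are given beside them. The mean of 10 measured skin keratinocyte genes, of 20 on the list, was 6.94 to 7.14 in single-Stat5b, 7.56 to 7.96 in single-Stat5a, 7.50 to 7.68 in Stat5a-/- and 7.58 to 7.67 in Stat5ab+/null. Cdsn, the gene farthest apart between the single-allele genotypes, is part of these means. Their gap is therefore not read as a shift of the whole list. Between single-Stat5b and single-Stat5a, 6 of the 10 were above 0 (median 0.15) and 2 were called, both lower in single-Stat5b; between Stat5a-/- and Stat5ab+/null 3 of 10 were above 0 (median -0.16) and none was called. Cdsn, the cornified layer adhesion protein, had 5.55, 5.85 and 4.50 in single-Stat5b arrays, against 11.26, 12.11 and 11.06 in single-Stat5a arrays (adjusted p = 2.21e-07). Its single-Stat5b values are under the filter level of 6.04, so no size is read from them, and the single-Stat5a arrays stood apart from the 2-allele arrays too, which had 6.34 to 7.08. Krtdap, a protein of differentiating keratinocytes, had 6.11, 7.04 and 7.78 in single-Stat5b arrays, against 8.26, 9.22 and 8.71 in single-Stat5a arrays (-1.75, SE 0.38, adjusted p = 0.0281). Between Stat5a-/- and Stat5ab+/null the widest gaps were those of Casp14 (0.70, SE 0.25) and Krtdap (-0.61, SE 0.38), neither of which was called. Krt10, the type I keratin of the upper epidermis, was added outside the naming rule. It differed by 0.19 (SE 0.17) between single-Stat5b and single-Stat5a. The part of skin in the keratin values was not tested. Muscle genes averaged 7.72 to 10.7 in single-Stat5b and 9.66 to 13.5 in single-Stat5a, and white adipocyte genes 11.9 to 12.6 and 12.6 to 12.8. None of the 12 muscle genes was above 0 in this comparison (median -2.38), 1 of 11 adipocyte genes was (median -0.41), and 7 of 9 B cell genes were (median 0.22). Between Stat5a-/- and Stat5ab+/null the counts were 11 of 12 (median 0.40), 5 of 11 (median -0.002) and 0 of 9 (median -1.44). No gene of these 3 lists was called in either comparison.

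Set side by side, mean levels of all 8 keratins, in the probe sets used, were lower in the 1-allele than in the 2-allele arrays. Over all genes 48.0% were lower, with a median difference of 0.05. The gap between the sets carries both the number of alleles and the array set and was not tested. Krt19 lay at 11.97 to 13.51 in the 1-allele arrays, against 13.52 to 13.90 in the 2-allele arrays, and Krt14 at 10.74 to 12.04 against 12.05 to 12.70. These were the 2 of 8 keratins without overlap, where 23.4% of all genes lay lower without overlap and 27.4% higher. Krt5 lay at 10.90 to 11.78 against 11.14 to 11.86, a mean difference of -0.07, unlike the -1.04 of its filament partner Krt14.

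Probe sets of 1 gene did not give 1 answer between the sets. The 3 probe sets of Krt8 had mean differences of -0.55 (1420647_a_at), 0.01 (1435989_x_at) and -1.08 (1423691_x_at) between the 1-allele and the 2-allele arrays. Within the sets they were close, at -0.11, -0.18 and -0.03 for Stat5a-/- minus Stat5ab+/null and 0.31, 0.10 and 0.30 for single-Stat5b minus single-Stat5a. The 3 probe sets of Krt14 had -1.04 (1423935_x_at), -1.36 (1460347_at) and -1.01 (1455573_at) between the sets. The weak 1455573_at, with values down to 4.53, overlapped between the sets, unlike the others. For single-Stat5b minus single-Stat5a it gave 0.29, against -0.08 in each of the others. The weaker Krt17 probe set, 1420193_at, ranged over 5.00 to 5.54, below the filter level, and the probe set shared by Krt17 and Krt14, 1427841_at, at 6.20 to 7.05. Probe sets whose names end in _x_at can hold probes that match related transcripts, and keratins are related in sequence, so signal shared between genes cannot be told apart here.

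**Figure D5:**
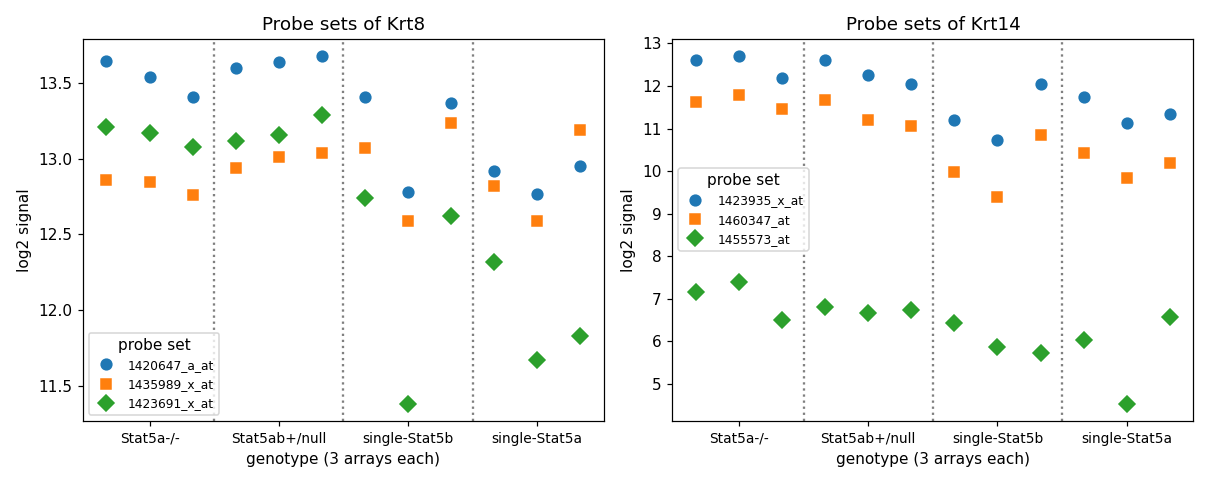
Log2 signal of the 3 probe sets of Krt8 and of Krt14 in each array, in the order of the genotypes. For Krt8, 1435989_x_at stays between 12.59 and 13.24 on all arrays, while 1423691_x_at lies at 11.38 to 12.74 in the 1-allele and 13.08 to 13.29 in the 2-allele arrays.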

How the data were processed

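Total RNA of mammary tissue, extracted with Trizol per the labels, was made into biotinylated cRNA and hybridized to Affymetrix mouse arrays. The authors deposited 1 log2 signal for each probe set and array. RMA and Partek are named in the submitters' processing notes, without version or setting. Array medians were 7.28 to 7.50. Genotypes came from the labels, and replicate numbers only follow record order.

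Of 45101 probe sets, 34945 named 1 gene in the platform's annotation, 932 several, 9160 none and 64 were controls; 34741 of the 1-gene probe sets had a gene ID in the mouse gene table, from which current symbols were taken. A probe set needed a mean at or above the 30th percentile (log2 6.04), and the 1 with the highest mean stood for each gene. All keratin probe sets are described. limma 3.58.1 in R 4.3.3 fitted 1 mean per genotype with 1 spread over 12 arrays (moderated, 2-sided tests). The smallest p of an exact permutation test at this group size is 0.1. The members, lists, tests and alternatives were chosen with earlier results of these data known. Genes named beside the keratins were the called list members (at most 4) or else the 2 with the largest change. The 4 other keratins with the largest change and the 5 genes most like each keratin pair were named too. Exceptions are marked, and for the B cell, muscle and adipocyte lists only means, counts and medians are given. The fit was tested on simulated data. Alternatives were other filters, scalings, probe set rules, variances, covariates and arrays left out, with the genes tested kept except under the filter and probe set rules.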

Additional observations from a re-analysis of the deposited data

Results flagged for a closer look

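With the arrays taken as labelled, the luminal minus basal keratin signal ran opposite ways in the 2 array sets. The Stat5a and Stat5b probe sets did not follow the labels of the 2-allele arrays, and the labels were not tested. All Stat5a-/- mice lay below all Stat5ab+/null mice, and all single-Stat5b mice lay above all single-Stat5a mice, though only just, with 1.6141 for the lowest single-Stat5b array and 1.6053 for the highest single-Stat5a array. The difference between the 2 differences was 0.88 on the log2 scale, beside an SD of 0.17 between mice of 1 genotype, and this difference was not tested. Leaving out each array in turn gave 0.76 to 0.99. It was 0.59 with the B cell and muscle list means as covariates and 1.19 with array weights.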

How the results depend on the processing

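Settings are named with the value they gave, and causes were not tested. Of 583 values of a keratin under an alternative, 550 kept their direction and 6 passed the test. The 4 arrays left out together were the third Stat5a-/- and, of each other genotype, the second. For Stat5a-/- minus Stat5ab+/null, the number of genes called (1) was 0 with a filter at the 50th percentile and with 4 arrays left out, 2 in a fit of these groups alone, 3 with the B cell and muscle covariates, 197 with array weights and 0 to 5 with each array left out. For single-Stat5b minus single-Stat5a (310) it was 825 over every probe set, 2218 with array weights, 157 in a fit of these groups alone, 196 with the covariates and 232 to 898 with each array left out. For the difference of differences (110) it was 271 over every probe set, 1574 with array weights, 61 with the covariates and 64 to 199. With array weights, 4 keratin values passed: Krt7 (-0.55) for Stat5a-/- minus Stat5ab+/null, Krt8 (0.48) for single-Stat5b minus single-Stat5a, and Krt7 (1.03) and Krt8 (0.57) for the difference of differences.

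Some keratin values changed sign. Krt18 for Stat5a-/- minus Stat5ab+/null was 0.017 with median centring, 0.031 with 4 arrays left out and -0.12 to 0.072 with each array left out. For single-Stat5b minus single-Stat5a, Krt14 was 0.044 with the mean of probe sets, 0.29 in its weakest probe set, 0.095 with the covariates, 0.073 with 4 arrays left out and -0.44 to 0.21 with each left out. Krt17 was 0.070 with the covariates, 0.18 with 4 left out and -0.68 to 0.11 with each left out, Krt15 was -0.098 with array weights and -0.12 to 0.72 with each left out, Krt5 was -0.36 to 0.11 and Krt19, the luminal keratin with the widest gap there (0.36), -0.031 to 0.73. For the difference of differences, Krt15 was 0.016 with quantile normalization, 0.37 with the covariates, 0.093 with the 3' minus 5' covariate, 0.13 with 4 arrays left out and -0.51 to 0.33 with each left out. Krt14 was 0.0084 in its weakest probe set, 0.079 with the covariates and -0.64 to 0.015 with each left out, and Krt17, at -0.53 without them, was 0.070 with the covariates. The luminal minus basal value, whose alternatives were chosen after seeing the data, kept its sign in 19 settings for each comparison. For single-Stat5b minus single-Stat5a (0.36) it was 0.18 with the covariates and 0.59 with array weights, and for the difference of differences (0.88) 0.59 and 1.19. No paired analysis was possible because the labels give the mice no shared replicate numbers.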

Other observations

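Intermediate filaments other than keratins were read from a list of 14, of which 11 were measured. None passed in either comparison, and their medians were -0.07 for Stat5a-/- minus Stat5ab+/null and 0.09 for single-Stat5b minus single-Stat5a. Lmna, the lamin A/C gene of the nuclear envelope, had 10.08, 10.26 and 9.79 in Stat5a-/- arrays, against 10.72, 10.84 and 10.76 in Stat5ab+/null arrays (-0.73, SE 0.17, limma adjusted p = 0.938), and its other probe sets gave -0.25 to 0.04. Gfap, a filament gene of glial cells, differed by 0.22 (SE 0.18). Des, the desmin of muscle, had 8.10, 7.26 and 8.51 in single-Stat5b arrays, against 8.29, 11.13 and 7.99 in single-Stat5a arrays (-1.18, SE 0.63), and the high value is that of single-Stat5a 2, which also had the highest mean of the muscle list. Synm, which pairs with desmin, had 8.30, 8.39 and 8.77 in single-Stat5b arrays, against 8.48, 10.75 and 8.55 in single-Stat5a arrays (-0.77, SE 0.46, other probe set -1.11), and its high value is that of the same array.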
